A study of Carassius auratus with 10 samples.

Results

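Circadian clock genes were examined in RNA-Seq data of cultured radial glial cells (RGCs) of the goldfish brain. The genes are 10 symbols of the core loop and its output, *per1a*, *per1b*, *per2*, *per3*, *clocka*, *clockb*, *arntl1a*, *arntl1b*, *arntl2* and *tefa*. They were found by the first word of the gene name that the authors gave each unigene, a cluster of assembled transcript sequences. All 10 symbols were found, on 54 of 170956 unigenes with reads and among 17474 symbols in all. All cells were dissociated from telencephalon and hypothalamus of adult females, grown in medium with serum and used at passage 3, and no strain or genetic alteration is named for any group. Untreated controls comprise 4 cultures in the labels. SNa, the secretoneurin A peptide, was given to 3 cultures at 1000 nM for 24 h, and SKF, an agonist of dopamine D1 receptors, to the remaining 3 at 10 µM for 24 h. The peptide was diluted in medium without serum, and the medium of the control and SKF cultures over these hours was not found in the sources read. The sources used here give neither the hour of harvest nor the light that reached the cultures, and 1 exposure time was used.

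The vertebrate clock is a feedback loop of transcription. CLOCK and its partner BMAL, whose genes are named *arntl* here, bind E-box elements as a pair and switch on the PER and CRY genes, and the PER and CRY proteins return to the nucleus and inhibit that pair. A second loop of REV-ERB and ROR nuclear receptors sets the level of BMAL, and output factors of the PAR bZIP family, TEF among them, act through D-box elements in competition with the repressor NFIL3. In zebrafish, cells of most tissues and even cell lines keep a clock that light sets directly, and light induces *per2* there. Teleosts carry duplicated copies of many of these genes, marked a and b, and goldfish have undergone a further duplication of the genome.

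Each group is 1 pool in the deposited tables, and single cultures cannot be separated. There is therefore no SD, no test between groups and no replicate check for any difference below. The control pool held 147886694 reads, the SNa pool 64778968 and the SKF pool 86711702. All SNa and SKF libraries and 3 of the 4 control libraries were sequenced on 2 lanes. The remaining control library also differs from all others in having no replicate number in its title. Any part it has in the control pool, and so in every ratio to control, cannot be taken out. Levels are given in CPM, the reads of a gene per 1000000 reads of its pool. Ratios are log2 ratios of the authors' normalized values, summed over the unigenes of a symbol, with exact binomial 95% intervals that cover counting error only. A gene is called past the fold when its log2 ratio is above 0.5 or below -0.5, a ratio of 1.41, and this is a call by size and not by a test. Both comparisons share the same control pool.

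Markers of other cells also differed between the pools, and their part in the results below was not tested. Of 11 radial glia markers 9 were found, summing to 6607 CPM in the control pool, 4039 in the SNa pool and 3977 in the SKF pool, and 6 of the 9 were lower by more than the fold in each treated pool. *gfap*, *vim* and *sox2* were present in each pool, while *cyp19a1b* and *slc1a3a* were not matched under these symbols. *vim* alone made up 3697, 2311 and 2318 CPM of the sums. *nes* went the other way within the fold, with 160, 228 and 195 CPM and log2 ratios of 0.498 with SNa and 0.278 with SKF. *her4.1* was at -0.02 with SNa and -0.18 with SKF. *fabp7a* had 303 CPM in the control pool, 10.0 in the SNa pool and 10.6 in the SKF pool. The 7 lens markers, all found, summed to 329, 6.04 and 4.75 CPM, and the 7 fibroblast markers to 13779, 21910 and 22769 CPM. Endothelial markers (5 of 7 found) summed to 110, 38.6 and 38.5 CPM, of which *cldn5a* alone made up 104, 30.6 and 30.4 CPM. These markers did not share 1 direction, with 2 higher and 2 lower by more than the fold with SNa. With SKF 1 was higher and 2 were lower. Neuronal markers (7 of 10) summed to 28.7, 26.1 and 27.3 CPM with *elavl3* at 0 in the SNa pool, of which *map2* alone made up 11.8, 13.7 and 15.2 CPM. By more than the fold, 4 neuronal markers were lower and 0 higher with SNa, and 4 were lower and 1 higher with SKF. Cell cycle genes (7 of 7) summed to 71.7, 37.5 and 39.4 CPM. Microglial markers (2 of 6) summed to 589, 637 and 576 CPM, nearly all of it from *apoeb* at 587, 635 and 572 CPM. The other one, *ptprc*, had 1.72, 2.69 and 3.44 CPM and was past the fold in both treated pools, at 0.63 with SNa and 0.99 with SKF. Oligodendrocyte markers (4 of 7) summed to 17.4, 15.7 and 17.6 CPM with *mbpa* at 0 in the SNa pool, of which *mbpb* alone made up 16.2, 14.7 and 15.9 CPM. By more than the fold, 1 was higher with SKF (*sox10*, 1.03) and 1 lower (*mbpa*, -2.32). In pooled libraries, fewer cells of a type cannot be told from less RNA per cell.

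The PER genes, the CLOCK genes, *arntl1b* and *tefa* were higher in the SKF pool than in the control pool beyond counting error, whereas *arntl1a* and *arntl2* were not. Against the control pool, 3 of the 10 genes were past the fold in the SKF pool, *per1a*, *per1b* and *arntl1b*, all of them higher. In the SNa pool 0 of the 10 genes were past the fold in either direction. Among all symbols with at least 1000 reads, 12.2% were higher by more than the fold in the SKF pool and 8.25% in the SNa pool, whereas 9.79% and 9.22% were lower. Over symbols with any number of reads these shares were 17.9% and 13.7% higher and 15.6% and 15.5% lower. The median log2 ratio of the 10 genes was 0.37 in the SKF pool and 0.19 in the SNa pool, beside 0.04 and 0.01 over the symbols with at least 1000 reads. Log2 ratios were above 0 for 10 of the 10 genes with SKF, where 54.4% of those symbols were, and for 8 with SNa, where 51.2% were. Counting intervals lay wholly above 0 for 8 genes with SKF, beside 41.8% of those symbols, and for 6 with SNa, beside 35.8%. They lay wholly below 0 for 0 genes with SKF, beside 33.9% of those symbols, and for 1 with SNa, beside 33.7%. The ratios of *arntl1a* and *arntl2* with SKF, 0.02 and 0.04, lay below the median of those symbols, and turned to -0.06 and -0.13 with the highest-mean unigene alone. Summed over the 54 unigenes, clock transcripts took 364 CPM of the control pool, 414 CPM of the SNa pool and 489 CPM of the SKF pool.

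**Figure D1:**
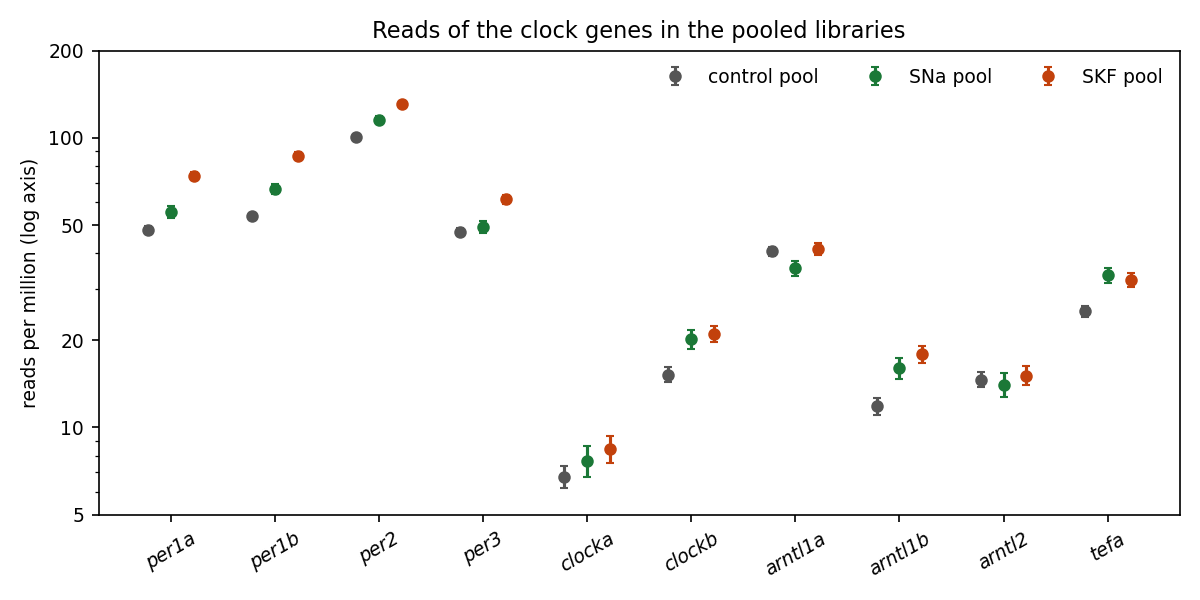
Level of each clock gene in the 3 pools, in CPM on a log axis, with bars for the exact Poisson 95% interval of the count (counting error only). The 4 *per* genes were highest in the SKF pool, with *per1b* at 53.5, 66.7 and 86.5 CPM in the control, SNa and SKF pools, while *arntl2* lay between 14.0 and 15.1 in all 3.

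The PER genes, the inhibitory arm of the loop, were all highest in the SKF pool. *per1b* had 7919 reads (53.5 CPM) in the control pool, 4319 (66.7 CPM) in the SNa pool and 7503 (86.5 CPM) in the SKF pool. The log2 ratio to control was 0.68 (0.62 to 0.75) with SKF, 1.61-fold, and 0.30 (0.23 to 0.38) with SNa, 1.24-fold. The 3 pools thus stood apart in the order control, SNa, SKF, with no overlap of their counting intervals. *per1a*, the other copy of the PER1 gene, had 48.2 CPM in the control pool, 55.4 in the SNa pool and 73.9 in the SKF pool, from 7127, 3587 and 6404 reads. This gave a log2 ratio of 0.61 (0.54 to 0.68) with SKF, 1.52-fold, and 0.19 (0.11 to 0.27) with SNa. For *per1a* as well the 3 pools did not overlap.

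*per2* and *per3* stood in the same order of pools with smaller ratios. *per2*, with 14914, 7482 and 11369 reads, had 101 CPM in the control pool, 116 in the SNa pool and 131 in the SKF pool, a log2 ratio of 0.37 (0.32 to 0.42) with SKF and 0.18 (0.13 to 0.24) with SNa. For *per3* the reads were 6989, 3191 and 5319, or 47.3, 49.3 and 61.3 CPM. Its log2 ratio was 0.37 (0.30 to 0.44) with SKF, while the ratio with SNa of 0.05 had an interval that included 0 (-0.04 to 0.13). The SKF pool was the high one for both genes, and for *per3* the control and SNa pools could not be told apart at this depth.

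Summed, the 4 PER genes had 250 CPM in the control pool, 287 CPM in the SNa pool and 353 CPM in the SKF pool. The log2 ratio of the sum was 0.49 (0.46 to 0.52) with SKF and 0.19 (0.15 to 0.22) with SNa.

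The activator CLOCK was somewhat higher in both treated pools. *clockb* had 2253 reads (15.2 CPM) in the control pool, 1307 (20.2 CPM) in the SNa pool and 1822 (21.0 CPM) in the SKF pool. Its log2 ratio was 0.46 (0.33 to 0.58) with SKF and 0.39 (0.25 to 0.53) with SNa, and the intervals of the 2 treated pools overlapped. *clocka*, the least read of the 10 genes, had 998, 495 and 729 reads, or 6.75, 7.64 and 8.41 CPM. The log2 ratio of *clocka* was 0.31 (0.11 to 0.51) with SKF and 0.17 (-0.06 to 0.39) with SNa, so only the SKF pool lay apart from the control pool by counting error. Without unigene 131960, its most read unigene, the ratio of *clocka* with SNa turned to -0.09.

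The 3 BMAL genes did not share 1 direction. *arntl1b* had 1753 reads (11.9 CPM) in the control pool, 1036 (16.0 CPM) in the SNa pool and 1550 (17.9 CPM) in the SKF pool, a log2 ratio of 0.59 (0.44 to 0.73) with SKF and 0.42 (0.26 to 0.58) with SNa. *arntl1a*, the other copy of BMAL1, had 40.7, 35.5 and 41.3 CPM, from 6017, 2297 and 3584 reads. It was the only one of the 10 genes whose interval lay wholly below 0, at -0.21 (-0.31 to -0.11) with SNa, while its ratio with SKF was 0.02 (-0.07 to 0.10). The copies of BMAL1 thus differed in direction in the SNa pool, *arntl1b* at 1.34-fold and *arntl1a* at 0.864-fold. The size of the *arntl1a* ratio with SNa depends on the unigenes used. Without its highest-numbered unigenes, 136294 and 136295, it was -0.08, and no interval was computed for that sum. With the highest-mean unigene alone it was -0.25.

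*arntl2*, the BMAL2 gene, was the flattest of the 10. It had 14.6 CPM in the control pool, 14.0 in the SNa pool and 15.1 in the SKF pool, from 2165, 908 and 1309 reads. Its log2 ratios were 0.04 (-0.11 to 0.18) with SKF and -0.07 (-0.24 to 0.08) with SNa, and the intervals of the 3 pools overlapped. A difference of the size seen for *per1b* would lie outside both intervals.

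*tefa*, a PAR bZIP activator that binds D-box elements, was by summed reads the one gene with its highest level in the SNa pool. It had 3722 reads (25.2 CPM) in the control pool, 2175 (33.6 CPM) in the SNa pool and 2800 (32.3 CPM) in the SKF pool. Against control this gave log2 ratios of 0.40 (0.30 to 0.51) with SNa and 0.35 (0.25 to 0.45) with SKF, and the 2 treated pools overlapped. The order control, SNa, SKF held for 7 of the 10 genes, *arntl1a* and *arntl2* were lowest in the SNa pool, and *tefa* was the other. Both steps of this order lay beyond counting error for *per1a*, *per1b* and *per2* alone. The share of all symbols in this order was not computed. This order depends on the unigenes used. With the highest-mean unigene alone, *tefa* was at 0.16 with SNa and 0.21 with SKF, and *clocka* at 0.56 and 0.23.

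**Figure D2:**
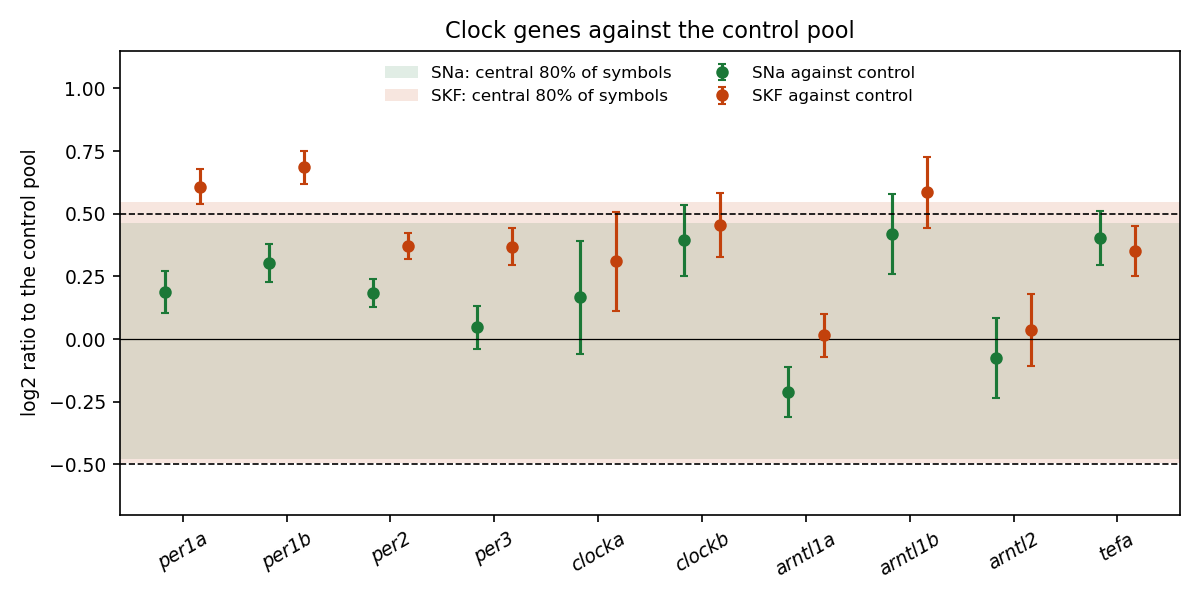
Log2 ratio of each clock gene to the control pool, for the SNa pool and the SKF pool, with exact binomial 95% intervals (counting error only). The bands span the central 80% of 10661 symbols with at least 1000 reads, from -0.48 to 0.46 for SNa and from -0.49 to 0.55 for SKF, and dashed lines mark 0.5 and -0.5. With SKF *per1a*, *per1b* and *arntl1b* lay above the band, and with SNa 0 genes did.

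Within a pool, the reads of 1 arm of the loop per read of the other do not depend on how pools are scaled. Lengths of the unigenes are not in the tables used, so the ratio itself has no meaning as a ratio of transcripts and only its difference between pools is read. PER genes had 3.72 reads per BMAL read in the control pool (3.60 to 3.84), 4.38 in the SNa pool (4.18 to 4.59) and 4.75 in the SKF pool (4.57 to 4.93). This was 1.18 times the control value with SNa and 1.28 times with SKF. *arntl1a* held 6017 of the 9935 BMAL reads in the control pool, so the BMAL sum rests mostly on that gene. The log2 ratios of *arntl1b*, 0.42 with SNa and 0.59 with SKF, were above those of the PER sum, 0.19 and 0.49. Per *arntl1b* read, PER reads were thus not higher in either treated pool. Per read of all 5 activator genes, CLOCK and BMAL together, the PER genes had 2.80 reads (2.72 to 2.88) in the control pool, 3.07 (2.95 to 3.20) in the SNa pool and 3.40 (3.29 to 3.52) in the SKF pool. The CLOCK sum alone had log2 ratios of 0.33 (0.21 to 0.45) with SNa and 0.41 (0.31 to 0.52) with SKF. Per CLOCK read, PER reads were thus lower with SNa and higher with SKF. The intervals of the PER and CLOCK sums overlapped in both comparisons. None of the ratios between arms was set in the design. CLOCK reads per BMAL read were 0.327 in the control pool, 0.425 in the SNa pool and 0.396 in the SKF pool. For a single pair, chosen after its values were seen, the *per1b* reads per *arntl1a* read came to 1.32 in the control pool, 1.88 in the SNa pool and 2.09 in the SKF pool.

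The treated pools can also be set against each other, a comparison that uses no control reads. Lens markers were at 6.04 and 4.75 CPM in the SNa and SKF pools, and those of photoreceptors and pineal cells at 8.47 and 9.53 CPM. Of the latter, *aanat2* had 2.84 and 4.29 CPM and *gnat2* 2.04 and 2.33 CPM. *gnat1* and *exorh* went the other way, at 3.16 and 2.63 CPM and at 0.432 and 0.277 CPM. *aanat2* and *exorh* are also among the clock pathway genes below. Microglial markers were at 637 and 576 CPM, nearly all from *apoeb*, while the other one, *ptprc*, went the other way at 2.69 and 3.44 CPM. The part of these markers in the differences below was not tested. Of the 10 genes 9 were higher in the SKF pool than in the SNa pool, where 56.7% of symbols with at least 1000 reads were. Intervals lay wholly above 0 for 5 of them, *per1a*, *per1b*, *per2*, *per3* and *arntl1a*, beside 18.8% of these symbols, and wholly below 0 for 0 genes, beside 9.5%. The log2 ratio of SKF to SNa, on total reads, was 0.42 (0.33 to 0.50) for *per1a*, 0.38 (0.30 to 0.45) for *per1b* and 0.32 (0.23 to 0.41) for *per3*. For *per2* it was 0.18 (0.12 to 0.24) and for *arntl1a* 0.22 (0.11 to 0.33), whereas for *tefa* it was -0.06 (-0.17 to 0.06). Of the symbols with at least 1000 reads 0.844% were higher in the SKF pool by more than 0.5 on the log2 scale and 0.113% lower, and of symbols with any number of reads 8.47% and 5.49%, while 0 of the 10 clock genes were past that size. The ratio of *per1a* lay above that of 98.4% of these symbols, that of *per1b* above 97.7%, that of *per3* above 96.0% and that of *arntl1a* above 90.4%. The median over the 10 genes was 0.17, beside 0.02 over these symbols.

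How the reads of a gene spread over its unigenes varied widely. The number of unigenes ran from 2 for *per1b* to 8 for *per1a* and *arntl2*, and the most read unigene held from 22.2% of the reads (*tefa*) to 88.3% (*per1b*). Of the 54 unigenes, 53 took their name from a zebrafish protein, with identities from 57.9% to 100% and a median of 84.7%. Unigenes of 1 gene often covered the same part of the same protein, as 4 of the *per1a* unigenes, which cover residues 1 to 1352 of a zebrafish Per1a protein. Goldfish copies, splice forms and alleles cannot be told apart among them, and the sources used here do not say how reads were divided between near-identical unigenes. Past the fold were 24 higher and 2 lower with SKF and 14 higher and 2 lower with SNa, beside 28.2% higher and 29.3% lower of all unigenes with SKF and 27.4% and 27.5% with SNa. These shares take in unigenes of any depth with reads in both pools. Shares at the depth of the clock unigenes were not computed, so the counts cannot be read against them.

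*per1a* and *per1b* had like ratios across most of their unigenes. Both *per1b* unigenes were past the fold with SKF, at 0.69 and 0.67, and lay at 0.31 and 0.30 with SNa. Of the 8 *per1a* unigenes, 6 were past the fold with SKF, from 0.53 to 0.80. The other 2 were short matches to the C-terminal part, of 466 and 77 control reads, at 0.23 and -0.11. With SNa the 8 unigenes ran from -0.18 to 0.26, so none was past the fold.

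*per2* by contrast was uneven, and its summed ratio depends on which unigenes enter. Unigene 29740, which matches residues 153 to 769 of a zebrafish Per2 protein at 92.9% identity, had 5579 reads in the control pool, 3482 in the SNa pool and 5425 in the SKF pool. Its log2 ratio was 0.72 (0.65 to 0.80) with SKF and 0.50 (0.41 to 0.59) with SNa. The other 4 unigenes match C-terminal parts. Unigene 24684 (5236 control reads, 78.5% identity) was at 0.12 with SKF and -0.06 with SNa, unigene 24683 (1903 control reads, 73.5% identity) at -0.34 and -0.18, and unigene 81315 (1934 control reads, 79.5% identity) at 0.29 and 0.03. Unigene 138058 (262 control reads, 80.4% identity) was at 1.01 and 0.52. These residue numbers refer to different entries of the zebrafish protein. Without unigene 29740 the ratio of *per2* was 0.11 with SKF and -0.04 with SNa, and with only the unigenes of at least 80% identity it was 0.74 and 0.50, the latter just past the fold.

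*per3* rested on 3 long unigenes of 2109 to 2248 control reads, which lay between 0.29 and 0.40 with SKF and between 0.03 and 0.11 with SNa. Its short unigenes 26694 and 69425, of 336 and 66 control reads, lay at -0.57 and 0.53 with SNa and at 0.31 and 1.04 with SKF. For *clocka*, unigene 131960 was at 0.56 with SNa, whereas the other 4 ran from -0.41 to 0.08.

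The BMAL genes, *clockb* and *tefa* had 4 to 8 unigenes each. For *arntl1a* 4 of 5 unigenes were below 0 with SNa, and the exception, unigene 30335, had 88 control reads. With SKF the *arntl1a* unigenes ran from -0.61, on 427 control reads, to 0.75 for unigene 30335. The 4 *arntl1b* unigenes were all above 0 in both comparisons, from 0.10 to 0.68 with SNa and from 0.22 to 0.94 with SKF. The 8 *arntl2* unigenes went both ways, with SNa from -1.58 on 54 control reads to 0.65 and with SKF from -1.09 to 0.65. All 5 *clockb* unigenes and all 7 *tefa* unigenes were above 0 in both comparisons, *clockb* from 0.20 to 0.66 with SNa and from 0.24 to 0.70 with SKF, and *tefa* from 0.12 to 1.18 and from 0.16 to 1.22.

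**Figure D3:**
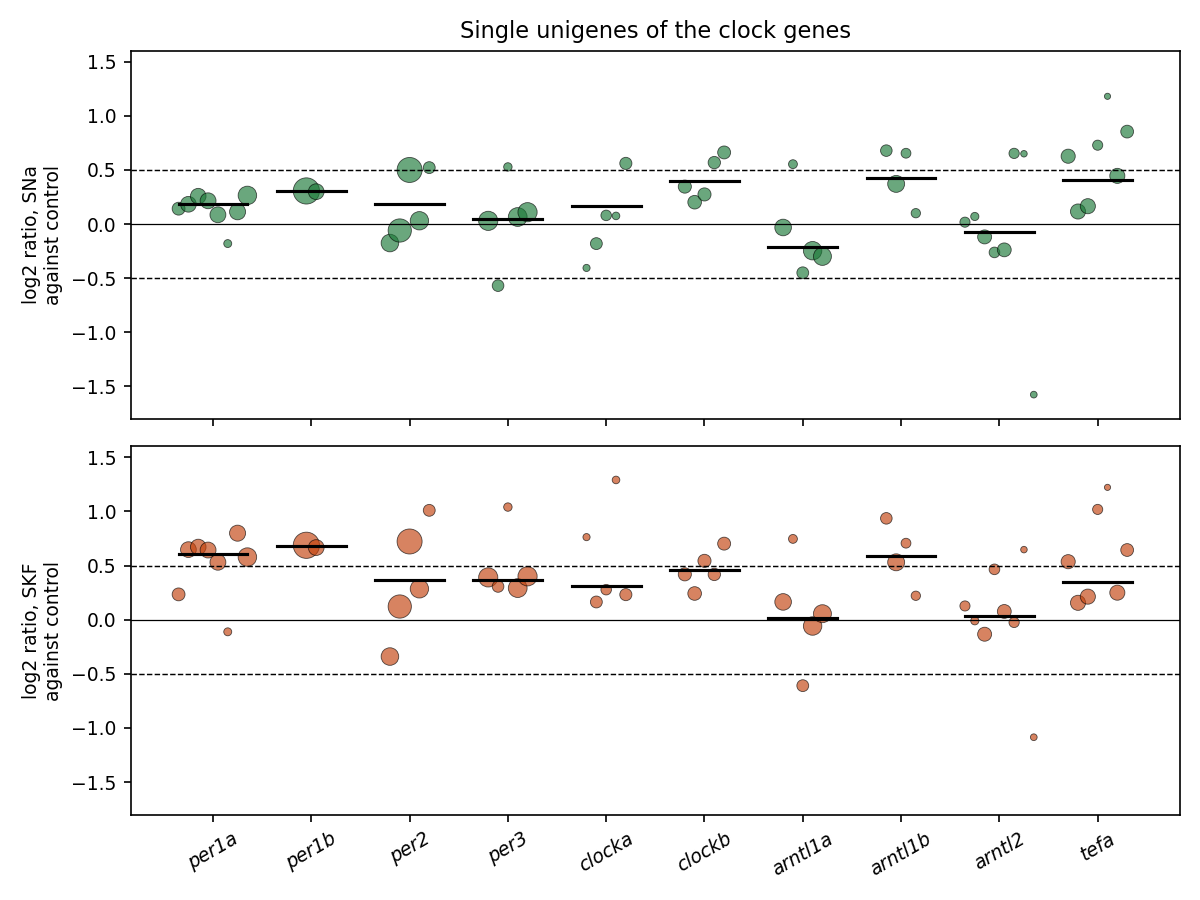
Log2 ratio to the control pool of every unigene of the clock genes, SNa above and SKF below, with the point's area growing with the reads of the unigene over the 3 pools. Black bars mark the ratio of the summed reads. For *per2* in the SKF pool the large points lie apart, at 0.72 for unigene 29740 and at 0.12 for unigene 24684.

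The number that the assembly gave a unigene went with its ratio over the whole transcriptome. Split into 4 stretches of numbers, with bounds taken from earlier work on these data, the first stretch had a median log2 ratio with SNa of -0.29 over 49465 unigenes and the third stretch one of 0.51 over 40806. The clock unigenes of these stretches had medians of 0.08 (22 unigenes) and 0.52 (17 unigenes). In the second stretch the medians were 0.01 over all unigenes and 0.10 over 14 clock unigenes, and in the last -0.82 and -1.58, the latter from 1 clock unigene. With SKF the medians over all unigenes were, in order of the stretches, -0.32, 0.49, -0.03 and -1.24, and those of the clock unigenes 0.35, 0.36, 0.54 and -1.09. The clock unigenes thus lay above the median of all unigenes in the first stretch. In the third stretch they lay above it with SKF but close to it with SNa, at 0.52 beside 0.51. In the second stretch they lay above it with SNa and below it with SKF. Without the third stretch and the last one, 0 clock genes were past the fold with SNa and 3 with SKF. With SNa *arntl1a* then moved from -0.21 to -0.08, *clocka* from 0.17 to -0.09 and *tefa* from 0.40 to 0.28. *arntl1b* stayed near its value, at 0.44 beside 0.42. The part of this pattern in the ratios was not tested further.

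Other genes of the pathway were taken from lists of 80 names, of which 43 were found. Past the fold were 2 higher and 4 lower with SNa and 9 higher and 4 lower with SKF, where 13.7%, 15.5%, 17.9% and 15.6% of all symbols were. Of the 35 with at least 1000 reads, 2 were higher and 4 lower with SNa and 6 higher and 1 lower with SKF, to be read beside the 8.25%, 9.22%, 12.2% and 9.79% of all such symbols. The median log2 ratio of the 43 was 0.06 with SNa, over the 42 with reads in the SNa pool, and 0.23 with SKF. The only unigenes of *dbpa*, *rorca* and *hlfa* and the most read one of *csnk1da* lie in the third stretch of numbers. There the median over all unigenes with SNa was 0.51, and its part in the ratios of these genes was not tested.

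Of 10 repressors found beside the PER genes, 0 were past the fold with SNa and 1 was higher with SKF. Over all symbols 13.7% were higher and 15.5% lower with SNa, and 17.9% and 15.6% with SKF. The cryptochromes *cry1aa*, *cry1ba* and *cry2*, the partners of PER in inhibition, had log2 ratios of 0.18, 0.34 and 0.31 with SKF and of -0.05, 0.23 and 0.05 with SNa. The cryptochrome genes with fewer reads did not all share that direction with SKF. Intervals included 0 for *cry1bb* at 0.11 (-0.01 to 0.23), *cry1ab* at -0.18 (-0.42 to 0.06) and *cry4* at -0.10 (-0.40 to 0.20). That of *cry5*, at -0.34 (-0.65 to -0.04), lay below 0. With SNa *cry1bb*, *cry1ab*, *cry4* and *cry5* lay at -0.05, -0.36, 0.00 and 0.05. Of these, only *cry1ab* had an interval wholly below 0 with SNa (-0.64 to -0.09), and those of the others included 0. *bhlhe40*, the E-box repressor DEC1, had 38613 reads in the control pool, 20993 in the SNa pool and 31910 in the SKF pool, a log2 ratio of 0.49 (0.46 to 0.52) with SKF and 0.30 (0.27 to 0.33) with SNa. Its relative *bhlhe41*, or DEC2, had 298, 173 and 350 reads and a log2 ratio of 0.99 (0.67 to 1.32) with SKF and 0.39 with SNa, the latter with an interval from just below 0 to 0.79.

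The nuclear receptors of the second loop went in different directions. *rorab*, an activator of BMAL transcription, had 860 reads in the control pool, 608 in the SNa pool and 1017 in the SKF pool. It was past the fold in both comparisons, at 1.00 (0.82 to 1.19) with SKF and 0.68 (0.46 to 0.89) with SNa. The related *roraa* was at 1.09 (0.54 to 1.65) with SKF, on 102 control and 128 SKF reads, and *rorca* at 0.49 with SKF and 0.44 with SNa.

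Among the REV-ERB receptors, which repress BMAL transcription, *nr1d2a* had 10397, 4703 and 9387 reads. It was past the fold with SKF at 0.62 (0.56 to 0.67) and at 0.03 (-0.04 to 0.11) with SNa. *nr1d2b* lay at 0.34 with SKF and 0.16 with SNa. *nr1d4b*, with 780, 184 and 336 reads, was lower, at -0.90 (-1.25 to -0.57) with SNa and -0.45 (-0.72 to -0.19) with SKF. *nr1d1*, the REV-ERB alpha gene, had a log2 ratio of -0.22 with SNa and -0.11 with SKF over its sum. Its unigenes were split, since unigene 25658 with 10933 control reads was at -0.38 and -0.29, whereas unigenes 134321 and 134322, with 705 and 604 control reads, were at 0.74 and 0.62 with SNa and at 0.93 and 0.81 with SKF. Unigene 25658 lies in the first stretch of numbers and the others in the third. The medians of all unigenes there were -0.29 and 0.51 with SNa and -0.32 and -0.03 with SKF. Their part in this split was not tested.

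The D-box activators related to *tefa* differed among themselves, the DBP genes being higher in both treated pools and *tefb* in neither. *dbpa* had 553 reads in the control pool, 408 in the SNa pool and 576 in the SKF pool, a log2 ratio of 0.82 (0.58 to 1.06) with SKF and 0.74 (0.47 to 1.01) with SNa. *dbpb* was at 0.59 (0.44 to 0.74) with SKF and 0.44 (0.27 to 0.61) with SNa. The PAR bZIP gene *hlfa*, with 16341, 6097 and 11162 reads, was at 0.21 with SKF and -0.24 with SNa. *tefb*, the paralog of *tefa*, had 1704, 672 and 984 reads and lay at -0.03 (-0.19 to 0.13) with SKF and -0.16 (-0.35 to 0.02) with SNa.

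NFIL3 genes, named for the repressor that binds the same element, did not share 1 direction. *nfil3-3* had 3454 reads in the control pool, 722 in the SNa pool and 1156 in the SKF pool. It was lower by more than the fold in both comparisons, at -1.08 (-1.25 to -0.91) with SNa and -0.82 (-0.95 to -0.68) with SKF, and all 3 of its unigenes were below 0, at identities to the zebrafish protein of 53.2% to 57.1%. The others stayed within the fold, *nfil3-2* at -0.28 with SNa and -0.10 with SKF, *nfil3-5* at 0.05 and 0.25, *nfil3-6* at 0.11 and 0.40 and *nfil3* at -0.03 and 0.02.

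*npas2*, a paralog of CLOCK that can take its place beside BMAL in mammals, was the pathway gene that set the treated pools furthest apart among those with at least 1000 reads. It had 5296 reads (35.8 CPM) in the control pool, 1086 (16.8 CPM) in the SNa pool and 2622 (30.2 CPM) in the SKF pool. Its log2 ratio was -1.11 (-1.24 to -0.97) with SNa and -0.25 (-0.35 to -0.16) with SKF. All 4 of its unigenes were below 0 in both comparisons. Set against each other, the SKF pool was higher than the SNa pool by 0.85 on the log2 scale, above 99.9% of symbols with at least 1000 reads. Reads of *npas2* per CLOCK read, a ratio chosen after the values were seen, were 1.63 in the control pool, 0.603 in the SNa pool and 1.03 in the SKF pool.

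Kinases and F-box proteins that control the turnover of PER and CRY proteins stayed mostly within the fold. *csnk1da*, a casein kinase 1 delta gene that phosphorylates PER, was at 0.54 (0.49 to 0.60) with SKF and 0.42 (0.36 to 0.48) with SNa, while its copy *csnk1db* was at 0.01 and -0.11. The kinase gene *gsk3b* was at 0.47 with SKF and 0.36 with SNa, and the F-box gene *fbxw11b* at -0.20 and -0.41.

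Among outputs, *nampta*, an enzyme of NAD synthesis, was at 0.51 (0.38 to 0.64) with SKF and 0.39 (0.25 to 0.54) with SNa. *aanat2*, an enzyme of melatonin synthesis in the fish pineal, had 648 reads in the control pool, 184 in the SNa pool and 372 in the SKF pool. Its log2 ratio was -0.64 (-0.99 to -0.30) with SNa and -0.04 (-0.31 to 0.23) with SKF. Markers of photoreceptors and pineal cells, of which 4 of 7 were found and *aanat2* is one, summed to 12.9, 8.47 and 9.53 CPM in the control, SNa and SKF pools. They did not share 1 direction, with *gnat1* at 0.63 with SNa and 0.37 with SKF and *gnat2* at -1.57 and -1.38. The part of these markers in the value of *aanat2* was not tested.

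**Figure D4:**
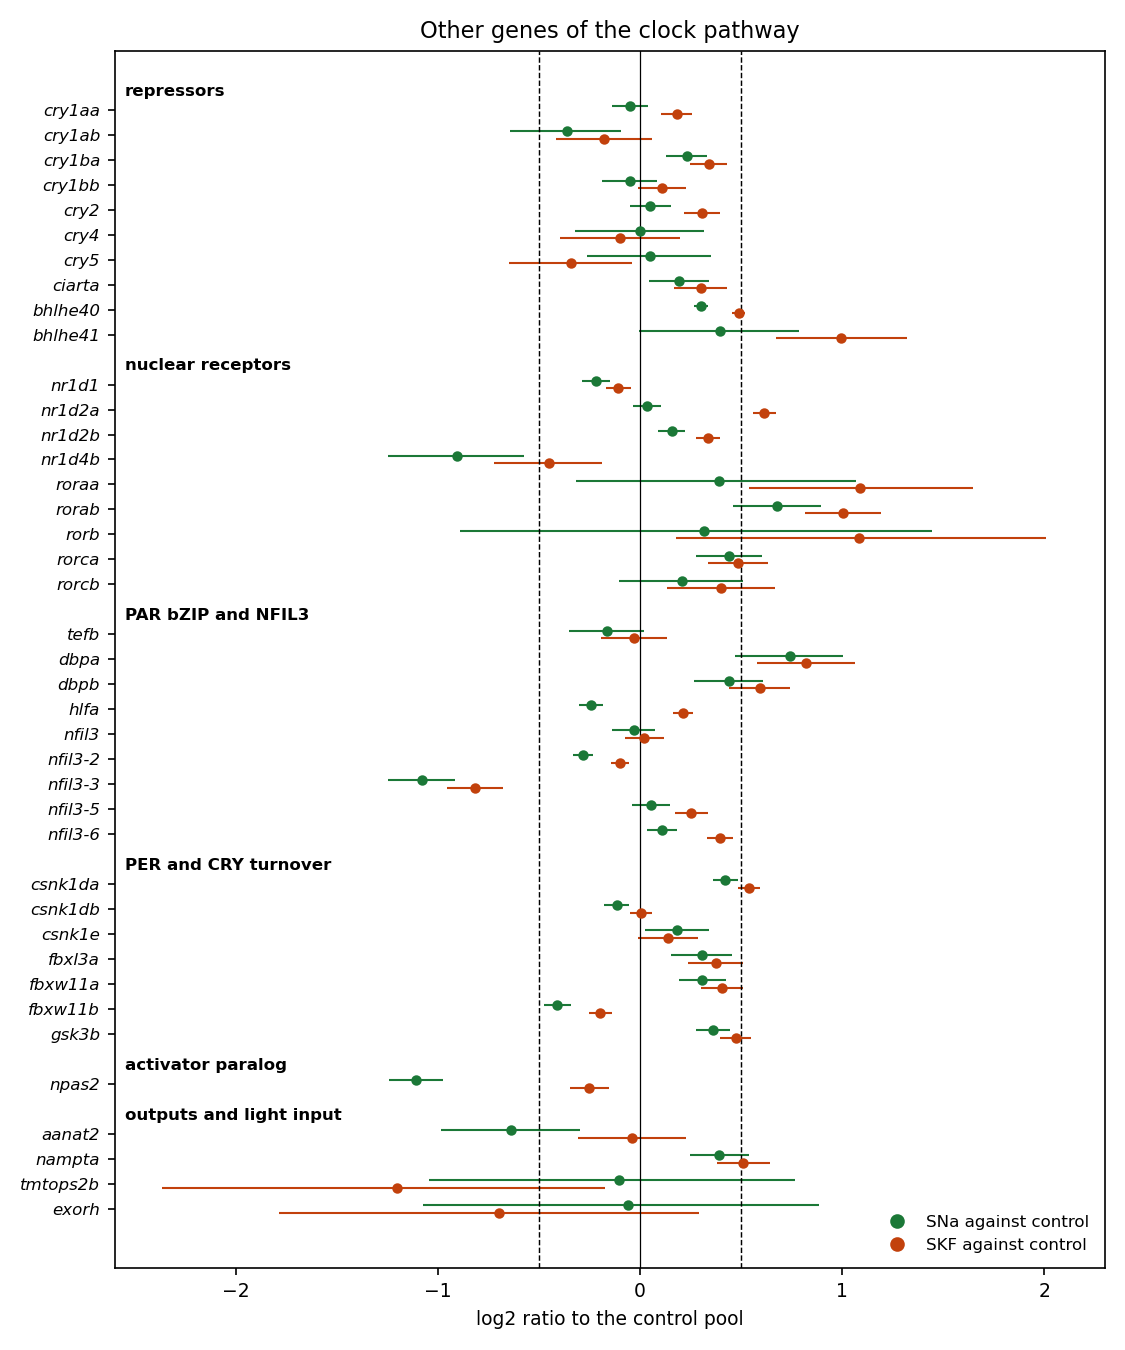
Log2 ratio to the control pool of the other clock pathway genes with at least 100 reads over the 3 pools, for SNa and SKF, with exact binomial 95% intervals (counting error only) and dashed lines at 0.5 and -0.5. *npas2* stands at -1.11 with SNa and -0.25 with SKF, and *rorab* and *dbpa* lie above 0.5 in both comparisons.

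Likeness of pattern says little over 3 pools. The symbols whose pair of log2 ratios lay nearest to that of *arntl1b* were *ccdc102a*, *pafah1b1b* and *klhl2*, at distances of 0.00238 to 0.00988 on the log2 scale, and 354 of 10661 symbols with at least 1000 reads lay within 0.1 of it.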

How the data were processed

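RNA of 10 RGC cultures was sequenced as poly(A)-selected paired-end libraries. The authors trimmed and pooled the reads, assembled them with Trinity, clustered contigs with CD-HIT and named unigenes by BLAST against chordate proteins. The deposited expression signal is 1 value per group, unigene and comparison, the pooled reads divided by 1 factor per group, from the authors' DESeq normalization. For the counting of reads a program was not given in the sources used here. Deposited beside it, the percent identity is that of the best protein hit. The tables also hold the authors' fold changes, p-values and calls, which were not used. The labels name 4 control cultures, more than the paper's methods state for its comparison.

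Pooled reads were recovered from the steps of the values (100% whole within 0.01 of a read, control reads equal in both tables for 100% of 167448 unigenes). Of the values above 0, 74.8% to 79.7% were even numbers of reads, so reads were divided by 2 for every interval, as mates of a pair appear to be counted apart. Unigenes in sheets 3 to 7 of each report were summed per symbol. A unigene found in 1 group of a comparison alone entered with 0 reads in the other. No floor of reads was applied to the sums. As a mark of depth only, 3 reads came to 0.0203 CPM (control), 0.0463 CPM (SNa) and 0.0346 CPM (SKF). The design set a count test across cultures, for which values per culture are needed, so folds by size with intervals were given in its place. The ratio and its interval were run on simulated reads drawn in pairs with counting error alone. That run checks the calculation only, because the simulated reads hold no variation between cultures. Named were the 10 genes and, of the pathway lists, the 4 with most reads per list and those past the fold with at least 100 reads over the groups compared. Further cryptochromes, *tefb* and *nfil3* were added after their values were seen, to complete those families. Members and lists were chosen with earlier results of these data known. Alternatives were 1 unigene per symbol, total reads, filters on low values, identity and unigene number, a larger fold and a pseudocount. Sequences were not used here. Python 3.11.15, numpy 2.4.6, pandas 2.3.3 and scipy 1.17.1 were used.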

Additional observations from a re-analysis of the deposited data

How the results depend on the processing

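No alternative run put a clock gene below the control pool by more than the fold. With the highest-mean unigene alone, 1 clock gene was higher by more than the fold with SNa (*clocka*, 0.56) and *per2* joined the others with SKF (0.72), 4 in all. With identities of at least 80% *per2* was 1 such gene with SNa (0.50) and brought the SKF count to 4. Without the most read unigene of each symbol, chosen after seeing the data, 1 was higher with SNa (*arntl1b*, 0.54) and 4 with SKF, *clockb* among them (0.52). A fold of 1 on the log2 scale left 0 clock genes with SKF, and of the other pathway genes 3 higher and 2 lower with SKF and 0 higher and 2 lower with SNa. Higher pathway genes with SNa numbered 4 with the highest-mean unigene, 4 without unigenes of mean under 10 and 9 without the most read unigene. Lower ones with SKF numbered 2 without unigenes of mean under 10 and 2 at 80% identity. Names taken also from the protein name, chosen after seeing the data, added 0 clock unigenes. The causes of these shifts were not tested.

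Of the clock gene ratios within the fold, those of 4 genes changed sign under an alternative. With the highest-mean unigene alone *arntl1a* was at -0.06 and *arntl2* at -0.13 with SKF, and with SNa *per2* turned to -0.04 and *clocka* to -0.09 without their most read unigene, *clocka* also without the highest-numbered unigenes. The ratio of *arntl1a* with SNa kept its sign without the highest-numbered unigenes but came to -0.08 from -0.21. Total reads in place of the authors' scale moved the ratios by at most 0.0117. No paired analysis was possible because the tables hold 1 pooled value per group, and leaving out single cultures or a count test could not be run for that reason. Depth limited *clocka* most, with 998 control reads.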

Other observations

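Opsins and further outputs of the clock were read at low levels. *exorh*, the pineal rhodopsin, had 66 reads in the control pool, 28 in the SNa pool and 24 in the SKF pool. The opsin *tmtops2b* had 78, 32 and 20 reads, a log2 ratio of -1.20 (-2.37 to -0.17) with SKF, and the melanopsin *opn4a*, named after its values were seen, had 18, 0 and 4 reads.

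A unigene with no gene name, but with *ciartb* in the name of its protein, had more reads than any other unigene named here. CIART is a repressor of the CLOCK and BMAL pair. This unigene, singled out after its values were seen, had 541 CPM in the control pool, 483 in the SNa pool and 506 in the SKF pool, a log2 ratio of -0.17 (-0.20 to -0.15) with SNa and -0.10 (-0.13 to -0.08) with SKF. It lies in the first stretch of numbers, where the medians over all unigenes were -0.29 with SNa and -0.32 with SKF. Their part in its ratios was not tested. The copy *ciarta*, also named after its values were seen, went the other way on 2259, 1141 and 1639 reads. Its log2 ratio was 0.19 (0.05 to 0.34) with SNa and 0.30 (0.17 to 0.43) with SKF. The most read unigene of *ciarta* also lies in the first stretch.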
